A study of Xenopus laevis x Xenopus muelleri with 6 samples.

Results

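Estrogen receptor 1 and 4 of the genes whose products it is known to control, or that mark the frog liver in which it acts, were read in the testes of hybrid frogs. The genes were both copies of the estrogen receptor (esr1.L and esr1.S), the vitellogenin genes vtga2.L and vtgb1.L, both copies of the protease inhibitor gene serpina1 (serpina1.L and serpina1.S) and the transthyretin gene ttr.L. They were found as every probe set whose only gene symbol in the platform annotation was one of these 7 names, which gave 7 of the 11485 probe sets of the deposited table, 1 for each gene. Each of the 6 Affymetrix arrays held RNA from 1 sample of testis, 3 from sex-reversed and 3 from normal animals. In both groups the mother was Xenopus laevis from the Cape of South Africa and the father Xenopus muelleri from Swaziland, and the animals were raised from eggs to sexual maturity under a fixed cycle of light and dark and killed with the anaesthetic MS222. The titles speak of biological replicates and do not say that each array had its own animal, so the p-values measure only how these samples vary. Neither the genetic sex of the sex-reversed frogs nor the agent that reversed it is stated in the labels. The comparison asked whether genes of the estrogen axis differ between the testis of a sex-reversed hybrid and that of a normal hybrid male.

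The estrogen receptor is a nuclear receptor that binds estradiol and then activates genes that carry its binding element. In egg-laying vertebrates its best known action lies in the liver, where estradiol switches on the vitellogenin genes, and the vitellogenin protein travels in the blood to the ovary and is stored as egg yolk. Male Xenopus do not normally make vitellogenin but their livers do so when given estradiol, which is why these genes serve as a readout of estrogen exposure. Serpina1 encodes alpha-1-antitrypsin and ttr encodes transthyretin, a carrier of thyroid hormone and, with its partner protein, of retinol. Both are secreted by the liver into the plasma. X. laevis carries many genes as an L and an S copy, 1 from each of its ancestral genomes, and signal from the other copy or from the X. muelleri allele on a probe set was not tested.

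The labelled tissue was checked on germ cell genes, some of which mark the germ line of testis and ovary alike. The genes ddx4.L, an RNA helicase of the germ line, and dazl.L, an RNA-binding protein of germ cells, lay at 12.36 to 12.56 and 11.92 to 11.94 log2 units in sex-reversed testes, against 12.35 to 12.75 and 11.69 to 12.05 in normal testes. By their means they stood at percentiles 99.7 and 99.5 of the table. On a germ cell list of 34 symbols, 15 genes had a probe set, and 7 of them lay above the 75th percentile of all probe sets while 4 lay below the 25th. Those 4 were the sperm genes odf3.S, ropn1l.L, odf3.L and meig1.S, at percentiles 1.95, 10.5, 11.8 and 12.5, while the sperm tail genes tekt1.L, tekt4.S and spag6.L stood at 97.7, 96.0 and 91.8. The values are log2 expression values on a scale shared by the arrays, with array medians of 5.25 to 5.31 and lowest values per array of 1.93 to 2.09. No detection call or background reading was used, so no value below can be called present or absent.

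All 7 estrogen axis genes read low on every array. The 42 values (7 genes on 6 arrays) ran from 2.40 to 4.20 log2 units, and all 42 lay below the median of their array. Of these, 32 lay below the 25th percentile of their array, which was 3.66 to 3.71. In terms of rank, the values ran from percentile 0.692 to percentile 33.7 of their arrays. The brightness of a probe set depends on its probes as well as on its RNA, so these levels are given against the array and not against each other. In a piece of whole testis, fewer cells of a type and less RNA per cell also cannot be told apart.

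**Figure D1:**
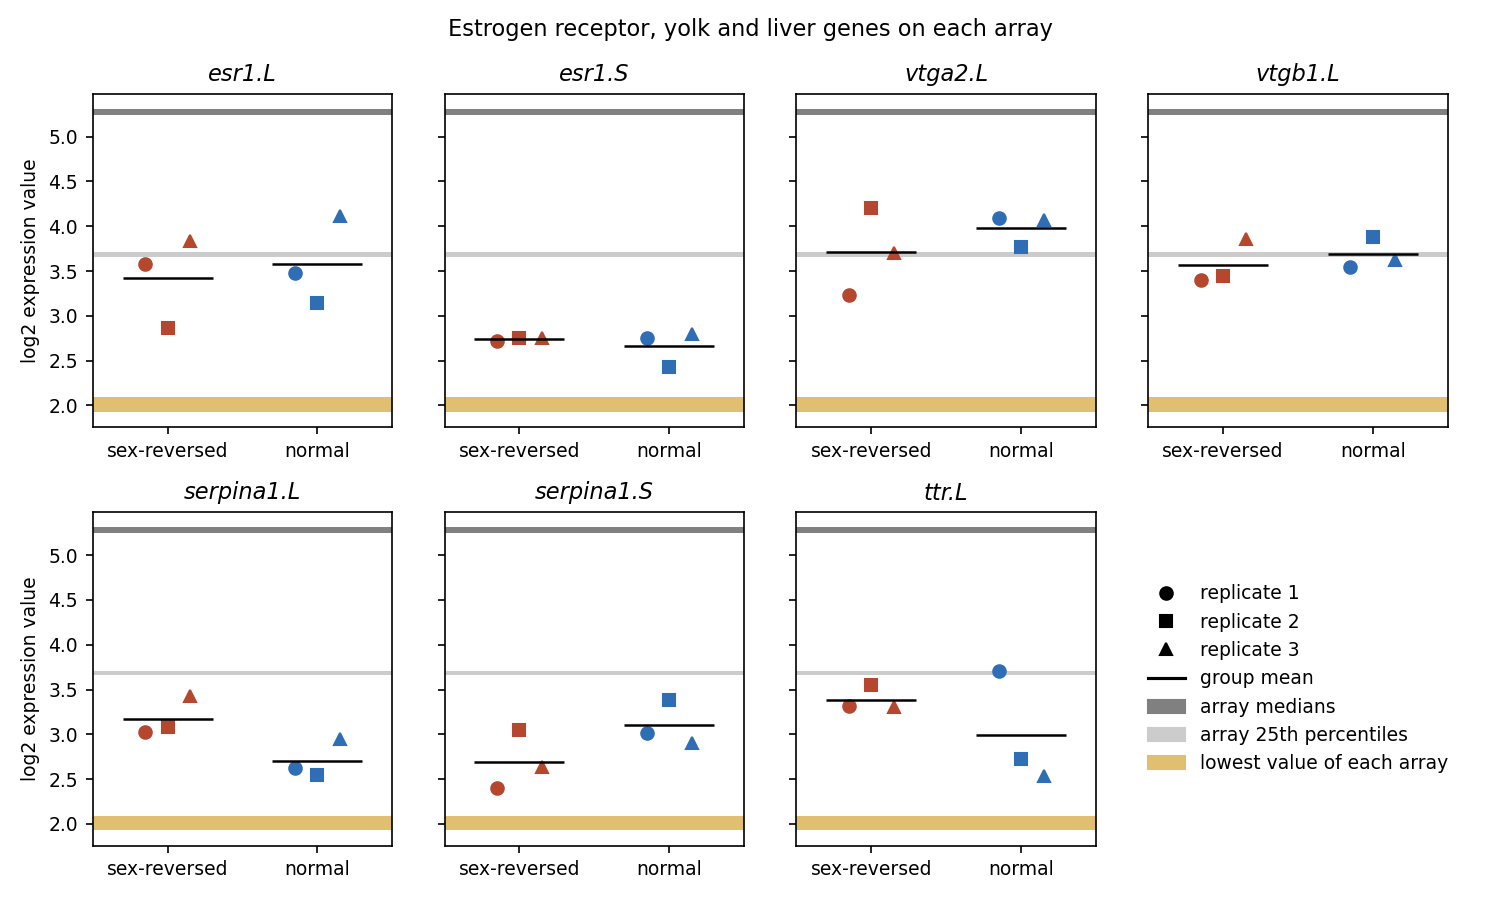
Log2 expression value (vertical axis) of each of the 7 genes on each array, with sex-reversed testes on the left and normal testes on the right of each panel. Points are arrays, with a shape for each replicate number, and black bars are group means. Bands mark the array medians (5.25 to 5.31), the array 25th percentiles (3.66 to 3.71) and the lowest value of each array (1.93 to 2.09). Every point lies under the band of medians. The groups of serpina1.L alone do not overlap, where 9.63% of all probe sets have such groups.

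The estrogen receptor copies are the sensors of the axis. The probe set of esr1.L (gene ID 398734) read 3.58, 2.87 and 3.83 in sex-reversed replicates 1 to 3, against 3.48, 3.14 and 4.11 in normal replicates 1 to 3. The groups overlapped, the lowest value was that of a sex-reversed testis and the highest that of a normal one. The means were 3.43 ± 0.50 in sex-reversed and 3.58 ± 0.49 in normal testes (SD, n = 3 each), a log2 difference of -0.15 with a 95% interval of -0.97 to 0.67 (limma, adjusted p = 0.999). The direction of so small a difference depended on single arrays, since it was 0.13 with sex-reversed replicate 2 left out and 0.11 with normal replicate 3 left out. Relative to the array medians esr1.L averaged -1.78 ± 0.47 log2 units (SD over the 6 arrays), and its rank moved between percentiles 7.87 and 32.3.

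The S copy is the same receptor from the other ancestral genome. The probe set of esr1.S (gene ID 398733) read 2.72, 2.75 and 2.75 in sex-reversed testes, against 2.76, 2.43 and 2.79 in normal testes. Of these values 5 lay within a span from 2.72 to 2.79, and normal replicate 2 lay below them. The means were 2.74 ± 0.02 in sex-reversed and 2.66 ± 0.20 in normal testes (SD, n = 3 each), and their log2 difference of 0.08 had a 95% interval of -0.40 to 0.56 (limma, adjusted p = 0.999). It was -0.03 without normal replicate 2. Its rank stayed between percentiles 1.02 and 6.06, 0.46 to 0.83 log2 units above the lowest value of each array, and its spread within groups (SD 0.14) was at percentile 6.57 of all probe sets.

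The vitellogenin genes encode the yolk precursor that the liver makes under estradiol. For vtga2.L (gene ID 100037071) the values were 3.23, 4.20 and 3.71 in sex-reversed testes, against 4.09, 3.77 and 4.07 in normal testes. Sex-reversed testes held both the lowest and the highest value, so the groups overlapped. The means were 3.71 ± 0.49 in sex-reversed and 3.98 ± 0.18 in normal testes (SD, n = 3 each), with a log2 difference of -0.27 and a 95% interval of -0.94 to 0.40 (limma, adjusted p = 0.998). Without sex-reversed replicate 1 the difference was -0.02, and without sex-reversed replicate 2 it was -0.51. By its mean over the arrays, vtga2.L was at percentile 27.3, the 1 gene of the 7 above percentile 25.

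The other yolk gene varied less. For vtgb1.L (gene ID 398695) the values were 3.40, 3.45 and 3.86 in sex-reversed testes, against 3.55, 3.88 and 3.62 in normal testes, and the groups overlapped over most of their range. The means of 3.57 ± 0.25 in sex-reversed and 3.68 ± 0.18 in normal testes (SD, n = 3 each) gave a log2 difference of -0.11, with a 95% interval of -0.64 to 0.42 (limma, adjusted p = 0.999). Left-out arrays moved it between -0.26 (no sex-reversed replicate 3) and -0.01 (no normal replicate 2). The upper ends of the 95% intervals lay at 1.32-fold higher in sex-reversed testis for vtga2.L and 1.34-fold for vtgb1.L, on the scale of these probe sets. A change of RNA that is hidden in the background of a probe set would not show there, and this was not tested.

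Alpha-1-antitrypsin was represented by both copies, and their differences had opposite signs. For serpina1.L (gene ID 397792) the values were 3.02, 3.08 and 3.43 in sex-reversed testes, against 2.62, 2.54 and 2.95 in normal testes. All 3 sex-reversed arrays lay above all 3 normal arrays. The means were 3.18 ± 0.22 in sex-reversed and 2.70 ± 0.22 in normal testes (SD, n = 3 each), a log2 difference of 0.47 (1.39-fold) with a 95% interval of -0.06 to 1.00, which did not pass (limma, unadjusted p = 0.0741, adjusted p = 0.997). It was the 1 of the 7 genes with groups that did not overlap, where 9.63% of all probe sets had such groups and 5.37% had them with the sex-reversed arrays higher. With any 1 array left out the difference was 0.35 to 0.59. The level of serpina1.L was low, at percentile 7.74 by its mean and 0.57 to 1.37 log2 units above the lowest value of each array.

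The S copy of the same gene read lower on average in sex-reversed testes. For serpina1.S (gene ID 379963) the values were 2.40, 3.05 and 2.63 in sex-reversed testes, against 3.01, 3.38 and 2.91 in normal testes. The groups overlapped through sex-reversed replicate 2, which lay above 2 of the normal arrays. The means were 2.69 ± 0.33 in sex-reversed and 3.10 ± 0.25 in normal testes (SD, n = 3 each), and the log2 difference of -0.41 had a 95% interval of -1.001 to 0.19 (limma, adjusted p = 0.997). It was -0.26 without sex-reversed replicate 1 and -0.58 without sex-reversed replicate 2. Sex-reversed replicate 1 gave the lowest value of the 42, at percentile 0.692 of its array. By its mean serpina1.S stood at percentile 6.57, and its values lay 0.40 to 1.41 log2 units above the lowest of each array. The opposite signs of the copies thus come from 2 probe sets that both read low, and a part of background in them was not tested.

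Transthyretin had the widest interval of the 7 genes but for that of esr1.L. For ttr.L (gene ID 397787) the values were 3.31, 3.55 and 3.30 in sex-reversed testes, against 3.71, 2.72 and 2.53 in normal testes. The sex-reversed values lay close together, and the normal ones lay on both sides of them, normal replicate 1 above and the others below. The means were 3.39 ± 0.14 in sex-reversed and 2.99 ± 0.63 in normal testes (SD, n = 3 each), with a log2 difference of 0.40 and a 95% interval of -0.37 to 1.17 (limma, adjusted p = 0.997). The difference was 0.76 without normal replicate 1 and 0.17 without normal replicate 3.

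Over the 7 genes, sex-reversed testes had the higher mean for 3 and the lower for 4, where 51.3% of all probe sets were higher, and 0 passed the threshold (limma, adjusted p of 0.05 over all probe sets), where 0% of the 11485 probe sets did. At an unadjusted p under 0.05 there were 0 of the 7 genes, against 508 probe sets or 4.42% in all. The median log2 difference of the 7 genes was -0.11, beside 0.01 over all probe sets, and all 7 intervals included 0. For 4 of them the interval lay within 2-fold in either direction, as it did for 62.5% of all probe sets. The exceptions were serpina1.L, serpina1.S and ttr.L, of which the serpina1 copies missed that bound narrowly (2.004-fold higher and 2.001-fold lower) and ttr.L reached 2.26-fold higher.

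**Figure D2:**
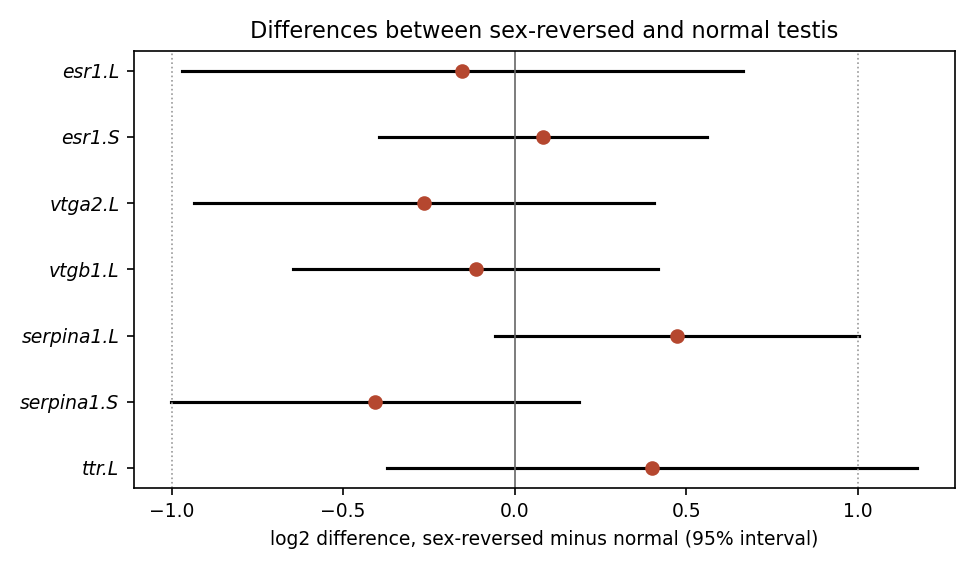
Log2 difference of each of the 7 genes, sex-reversed minus normal testis (horizontal axis), as points with the 95% interval of the moderated fit as lines. Dotted lines mark 2-fold in either direction. All 7 intervals cross 0, and the differences run from -0.41 for serpina1.S to 0.47 for serpina1.L.

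The copies of a gene were also set against each other as the log2 value of L minus S within each array, which asks whether they moved alike and not which is more abundant. For esr1 this was 0.86, 0.12 and 1.08 in sex-reversed testes, against 0.73, 0.71 and 1.32 in normal testes, and the groups overlapped. The group means differed by -0.23 (exact two-sided permutation test over arrays, p = 0.6, adjusted over both genes p = 0.6), with a 95% interval of -1.11 to 0.64 in limma. Leaving out sex-reversed replicate 2 gave 0.05, and leaving out normal replicate 3 gave -0.03. The esr1.S values lay only 0.46 to 0.83 log2 units above the lowest value of each array and varied little. L minus S therefore largely followed esr1.L, and this contrast cannot tell whether the esr1 copies moved alike.

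For serpina1, L minus S was 0.62, 0.03 and 0.80 in sex-reversed testes, against -0.39, -0.84 and 0.04 in normal testes. Sex-reversed replicate 2 (0.034) and normal replicate 3 (0.042) lay almost level, and the other sex-reversed arrays lay above every normal one. The group means, 0.48 ± 0.40 in sex-reversed and -0.40 ± 0.44 in normal testes (SD, n = 3 each), differed by 0.88 (exact two-sided permutation test, p = 0.2, adjusted over both genes p = 0.4, where 0.1 is the smallest p that 3 against 3 arrays allow). Among 622 genes of the table with both copies, a limma fit of L minus S gave serpina1 a 95% interval of 0.02 to 1.74. In that limma fit its unadjusted p was 0.0468 and its adjusted p 0.992. An unadjusted p under 0.05 was reached by 3.54% of the pairs. With 1 array left out the difference was 0.66 to 1.103. The limma fit did not pass. With 3 against 3 arrays the exact test could not have passed a threshold of 0.05, for serpina1 or for esr1, so no conclusion is drawn from it.

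**Figure D3:**
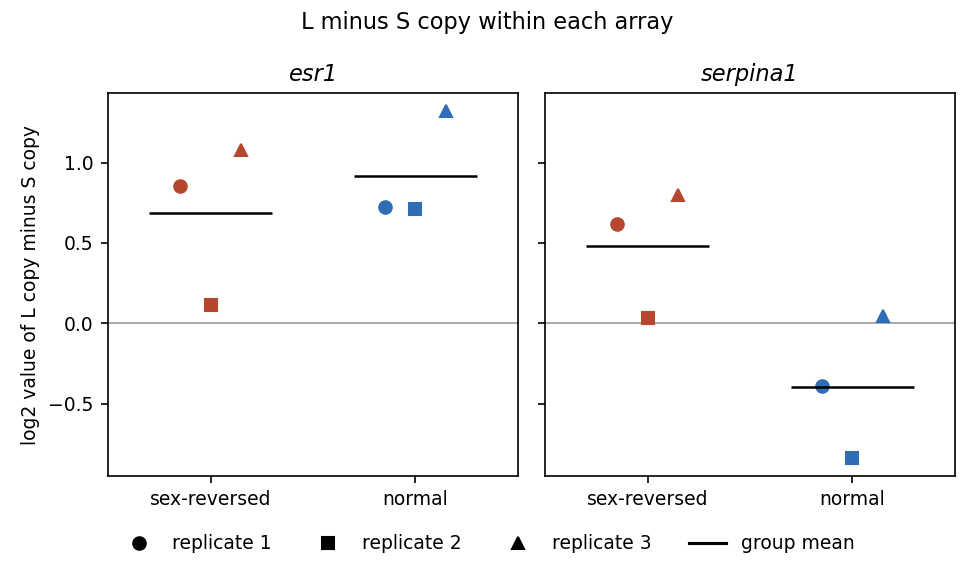
Log2 value of the L copy minus that of the S copy within each array (vertical axis) for esr1 and serpina1, sex-reversed testes on the left and normal testes on the right of each panel. Points are arrays and black bars group means. For serpina1 the bars lie at 0.48 in sex-reversed and -0.40 in normal testes, with sex-reversed replicate 2 and normal replicate 3 almost level.

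Correlations among the 7 genes over the 6 arrays had both signs. Pearson correlations between them, taken over 6 arrays that share their normalization and given as a description, ran from -0.69 for serpina1.L with serpina1.S to 0.64 for vtga2.L with serpina1.S. The receptor copies had r = 0.46, and esr1.L had r = -0.20 with vtga2.L and 0.17 with vtgb1.L. The vitellogenin genes had r = 0.01 with each other. Spread within groups also differed, from an SD of 0.14 for esr1.S to 0.50 for esr1.L, beside a median of 0.34 over all probe sets.

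Patterns over the 6 arrays most like those of the 7 genes belonged to genes of many kinds, and with 6 arrays and 6797 other named probe sets high correlations are easily found. Between 36 (vtgb1.L) and 127 (esr1.S) probe sets had r of at least 0.9 with a given gene. Nearest to esr1.L were prrc2c.S (r = 0.995), an RNA-binding protein gene, the integrin gene itga11.S (0.978) and the elastase gene cela1.2.L (0.977). Nearest to esr1.S were the centrosome gene cep95.L (0.996), the reticulon gene rtn4.S (0.994) and nubp2.L (0.992), a gene of iron-sulfur cluster assembly. These 3 values rested in part on normal replicate 2, and without it they were 0.84, 0.88 and 0.82.

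Nearest to vtga2.L were the metallothionein gene mt4.L (0.988), cep170b.S (0.977) and the RNA-binding gene lsm8.S (0.976). Nearest to vtgb1.L were the proton pump accessory gene atp6ap2.L (0.970), the ferredoxin gene fdx1.L (0.961), whose product passes electrons to steroid-making enzymes, and prps2.L (0.958). For serpina1.L they were sike1.L (0.990), the homeobox gene gbx2.2.L (0.989) and the neuropilin gene nrp1.L (0.983). For serpina1.S they were cgl.2.L (0.984), hif1an.S (0.978), an oxygen-dependent inhibitor of hypoxia signalling, and tfe3.S (0.975). For ttr.L they were the mitochondrial carrier gene slc25a11.L (0.980), asb8.L (0.979) and the zinc finger gene klf5.S (0.974). None of these is another of the 7 genes.

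Genes around the receptor gave a wider view of the axis. Of 21 symbols of estrogen receptors and related nuclear receptors, 12 genes were measured, among them both esr1 copies. The second nuclear estrogen receptor, esr2, the androgen receptor and the progesterone receptor were not analysed here, for want of a probe set that names any of them alone. In sex-reversed testes 7 of the 12 were higher and 5 lower, with 0 past the threshold, and their median log2 difference was 0.02, beside -0.004 over 5790 genes taken with 1 probe set each, of which 49.6% were higher. By mean level, 3 of the 12 lay above the median of all probe sets, where 60.9% of the 5790 genes did. Below percentile 25 lay 6 of the 12, where 17.5% of the 5790 genes did. Without both esr1 copies it was 4 of 10, and those 10 were 6 higher and 4 lower in sex-reversed testes. The retinoid X receptor gene rxrb.S read 5.40, 5.27 and 5.76 in sex-reversed testes, against 6.61, 5.93 and 6.35 in normal testes, a log2 difference of -0.82 with an interval of -1.42 to -0.21 that did not pass (limma, adjusted p = 0.997). The mineralocorticoid receptor gene nr3c2.L differed by 0.32 (-0.08 without sex-reversed replicate 1) and nr5a2.L, a receptor of liver and gonad, by 0.27 (-0.15 without sex-reversed replicate 2). For nr5a2.S, the other copy of nr5a2.L, the difference was 0.04. Of the 12 genes 1, rxrb.S, had an unadjusted p under 0.05 (limma), as did 4.42% of all probe sets.

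Estrogen receptors act through coactivators, corepressors and chaperones that many nuclear receptors share. Of 52 symbols of such proteins 28 genes were measured. Over all 5790 genes, 60.9% lay above the median of all probe sets and 34.2% above the 75th percentile. The 28 genes had larger shares by mean level, with 25 of them above that median and 17 above that percentile. They were 15 higher and 13 lower in sex-reversed testes (median log2 difference 0.02), and 0 passed. The prohibitin gene phb.L differed by 0.86 with an interval of -0.82 to 2.54, and by -0.08 without normal replicate 2. Its other copy, phb.S, differed by -0.22 (interval -0.75 to 0.32). The coactivator gene ncoa5.S differed by -0.80 (interval -1.71 to 0.10). The transcription factor gene sp3.S read 3.38, 3.57 and 3.53 in sex-reversed testes, against 4.04, 4.30 and 4.41 in normal testes. Its log2 difference was -0.76 with an interval of -1.24 to -0.27 (limma, adjusted p = 0.997). Of the 28 genes 2 had an unadjusted p under 0.05 (limma), as did 4.42% of all probe sets. These were sp3.S and gata3.S, the second with a log2 difference of 0.61 (interval 0.11 to 1.11).

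Few genes of estrogen synthesis and turnover were measured, 6 of 25 symbols, and aromatase (cyp19a1), the enzyme that makes estrogen from androgen, was not analysed here. These 6 were 2 higher and 4 lower (median log2 difference -0.30) and 0 passed. The androgen pathway gene cyp17a1.L read 11.1, 10.5 and 5.17 in sex-reversed testes, against 9.96, 11.3 and 10.8 in normal testes. The low array was sex-reversed replicate 3, and the log2 difference was -1.76 over all arrays and 0.12 without it. The other probe set of cyp17a1.L had the same sign and a smaller log2 difference over all arrays, -0.64. For stard3.S, whose product moves cholesterol, the difference was -0.49 (interval -1.21 to 0.22), and for the estrogen-oxidising enzyme gene cyp1a1.S it was 0.63 (interval -0.25 to 1.52). The other copy, cyp1a1.L, had the opposite sign, -0.31 (interval -1.60 to 0.97).

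Of genes that respond to estrogen in other tissues or species 0 passed, where 0% of all 11485 probe sets did. Of 43 symbols 21 genes were measured, 5 of them among the 7. Sex-reversed testes had 8 higher and 13 lower (median log2 difference -0.13), where 49.6% of all 5790 genes were higher. Without those 5 the other 16 were 6 higher and 10 lower (median -0.14). The small heat shock gene hspb1.S read 4.17, 3.15 and 3.46 in sex-reversed testes, against 4.78, 3.57 and 5.73 in normal testes, a log2 difference of -1.10 with an interval of -2.36 to 0.16. For its other copy, hspb1.L, the difference was 0.16 (interval -0.60 to 0.91). The retinoic acid receptor gene rara.L differed by -0.54 and the cyclin gene ccnd1.L by -0.48, both with intervals that included 0.

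Yolk reaches the oocyte through receptors of the lipoprotein family and is cut there by cathepsins. Of 25 symbols of yolk proteins, their receptors and uptake machinery 12 genes were measured, with 3 higher and 9 lower (median log2 difference -0.08), with 0 past the threshold. Without vtga2.L and vtgb1.L the other 10 were 3 higher and 7 lower (median -0.05). The vitellogenin receptor family gene vldlr.S differed by -0.44 (interval -1.10 to 0.23) and the lipoprotein receptor relative lrp5.L by 0.39 (interval -0.33 to 1.098). The cathepsin B gene ctsb.S read 11.28, 7.60 and 11.03 in sex-reversed testes, against 10.72, 10.99 and 10.32 in normal testes. Its log2 difference of -0.70 was 0.48 without sex-reversed replicate 2, the array on which it was low.

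The liver genes of the plasma are the class to which serpina1 and ttr belong. Of 83 symbols 35 genes were measured, and 18 of them (51.4%) lay below the 25th percentile of all probe sets, where 17.5% of all 5790 genes did. Without serpina1.L, serpina1.S and ttr.L it was 15 of 32 (46.9%). The measured fibrinogen genes fga.S, fgb.L, fga.L and fgg.L stood at percentiles 13.1, 19.7, 34.4 and 36.1. By mean level 5 of the 35 lay above the median of all probe sets, where 60.9% of all 5790 genes did. These 5 were the complement gene c8a.L, the coagulation factor gene f12.L, serpinf1.L, ahsg.L and hrg.L, with means of 9.11, 6.76, 6.67, 6.54 and 6.104. Some members are also made outside the liver, and whether this bears on the levels was not tested. The list was 23 higher and 12 lower in sex-reversed testes, with a median log2 difference of 0.07 and 0 past the threshold. Without serpina1.L, serpina1.S and ttr.L the other 32 were 21 higher and 11 lower (median 0.07).

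**Figure D4:**
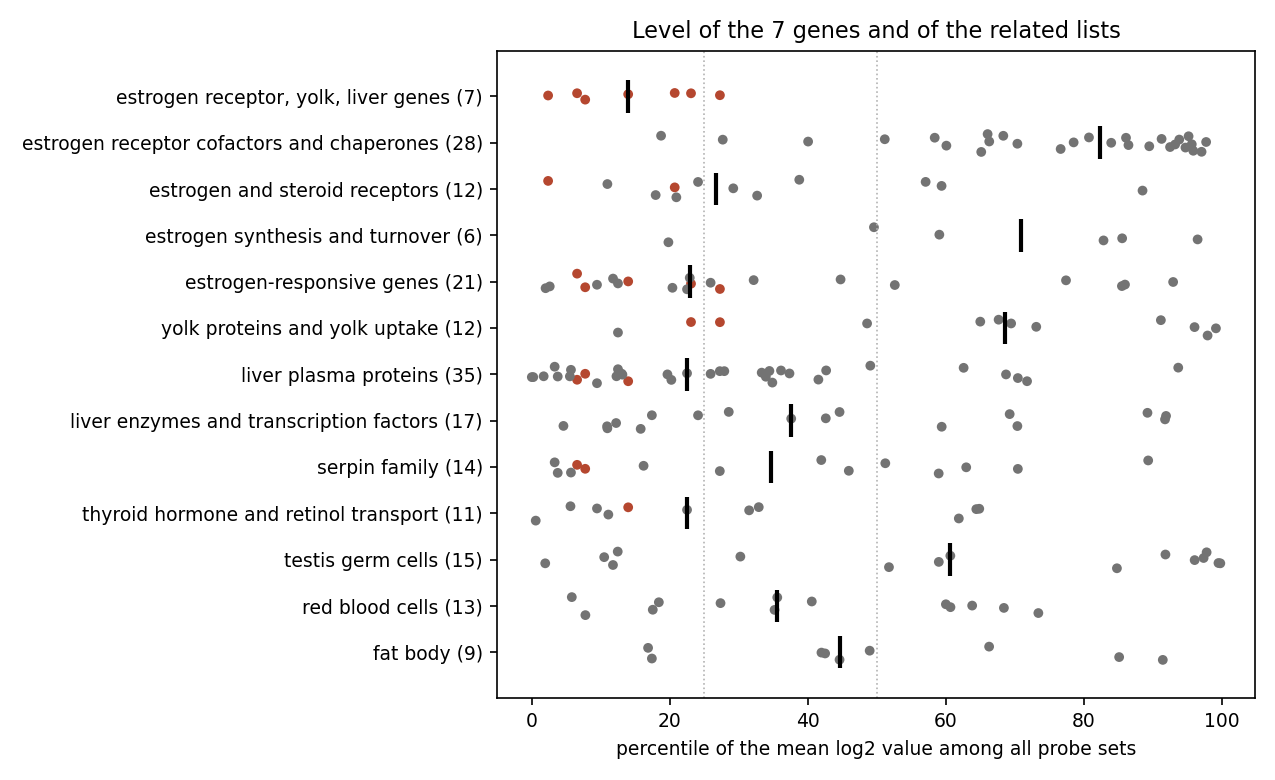
Percentile of the mean log2 value of each gene among all probe sets (horizontal axis) for the 7 genes and for 12 related lists, with the number of genes measured in parentheses. Points are genes, in red where they are among the 7, black bars are list medians and dotted lines mark the 25th and 50th percentiles. The 7 genes lie between percentiles 2.37 and 27.3, and 25 of 28 cofactors of the receptor lie above the 50th.

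Among single plasma protein genes, c8a.L read 9.54, 9.19 and 9.52 in sex-reversed testes, against 8.74, 8.84 and 8.81 in normal testes, a log2 difference of 0.62 with an interval of 0.14 to 1.098 (limma, adjusted p = 0.997). The apolipoprotein gene apoe.L differed by -1.06 (interval -2.16 to 0.05), the complement gene cfb.S by 0.78 (interval -0.03 to 1.58) and serpina3.L by -0.88 (interval -2.61 to 0.86, and -0.11 or -1.66 with normal replicate 1 or 3 left out). For cfb.L, the other copy of cfb.S, the difference was 0.02. Of the 35 plasma protein genes 1, c8a.L, had an unadjusted p under 0.05 (limma), as did 4.42% of all probe sets. The gene f12.L differed by 0.15 and serpinf1.L by -0.12, the second by 0.32 if sex-reversed replicate 1 is left out and by 0.13 if normal replicate 3 is. Other liver genes, enzymes and transcription factors, were 13 higher and 4 lower of 17 (median 0.10) with 0 passed, and among them the urea cycle gene ass1.S differed by 1.08, the creatine synthesis gene gamt.S by -1.01 and cebpa.L by -0.66, all with intervals that included 0. The other copy, cebpa.S, had the opposite sign, 0.44 (interval -0.39 to 1.27). Of the 17 genes 1, pck1.L, had an unadjusted p under 0.05 (limma), where 4.42% of all probe sets did. Its log2 difference was 0.60 (interval 0.13 to 1.08), and that of pck1.S was 0.05.

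Serpina1 belongs to a large family of protease inhibitors, of which 14 genes were measured for 36 symbols, 6 higher and 8 lower in sex-reversed testes (median -0.08). Without both serpina1 copies the other 12 were 5 higher and 7 lower (median -0.08). The gene serpine2.S, protease nexin 1, read 5.97, 5.56 and 6.01 in sex-reversed testes, against 4.81, 4.91 and 4.78 in normal testes. The groups did not overlap, as for 9.63% of all probe sets, and the log2 difference of 1.01 had an interval of 0.51 to 1.51 but did not pass (limma, adjusted p = 0.997). Its other copy serpine2.L, named after its values were seen, averaged 5.75 ± 0.26 in sex-reversed testes and 6.52 ± 0.56 in normal testes (SD, n = 3 each). It differed by -0.77 (interval -1.52 to -0.02) and did not pass (limma, adjusted p = 0.997), and it was -0.45 without normal replicate 2. The gene serpinb6.L differed by -0.87 (interval -1.96 to 0.22). Of 11 measured genes of thyroid hormone and retinol transport, the setting of transthyretin, 8 were higher and 3 lower (median 0.10) with 0 passed. Without ttr.L the other 10 were 7 higher and 3 lower (median 0.09). Over all arrays the 3 of the 11 with the greatest differences were the retinol dehydrogenase gene rdh10.S (0.56), the deiodinase gene dio2.L (0.45) and ttr.L itself. That of rdh10.S was 0.094 with normal replicate 3 left out, 0.14 with sex-reversed replicate 1 left out and 1.24 with sex-reversed replicate 3 left out, and that of dio2.L was 0.24 with sex-reversed replicate 2 left out. For rdh10.L, the other copy of rdh10.S, the difference was 0.22.

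**Figure D5:**
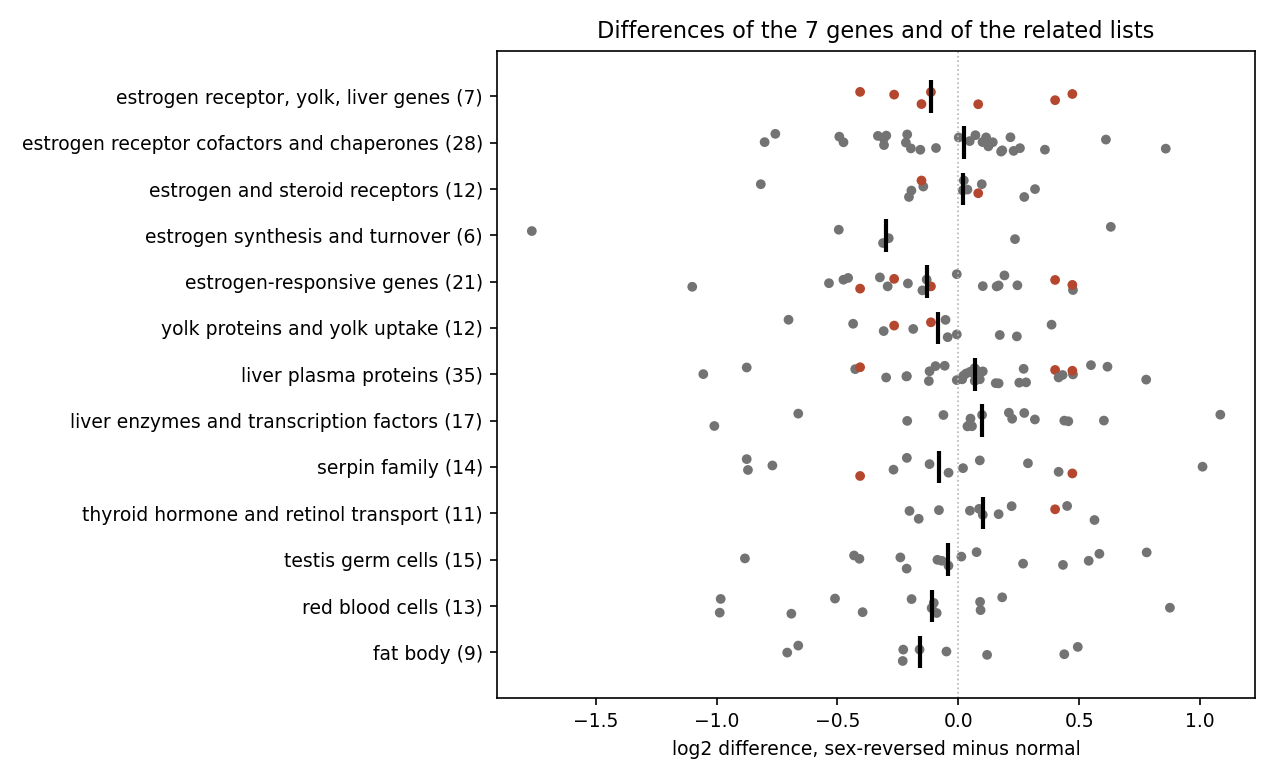
Log2 difference, sex-reversed minus normal testis (horizontal axis), of the 7 genes and of the genes of 12 related lists, with the number of genes measured in parentheses. Points are genes, in red where they are among the 7, and black bars are list medians. List medians lie between -0.30 for estrogen synthesis and turnover and 0.10, and 0 genes passed the threshold.

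Marker lists of blood and of tissue that can lie beside the testis were read on each array, and their part in the results above was not tested. The 35 plasma protein genes include serpina1.L, serpina1.S and ttr.L, so their mean is not separate from the 7 genes. The mean log2 value over these 35 was 3.95 to 4.15 on the sex-reversed arrays, against 3.85 to 4.19 on the normal ones. That over 13 red blood cell genes was 4.57 to 4.63 in sex-reversed testes, against 4.53 to 5.14 in normal testes, and that over 9 fat body genes was 5.32 to 5.54 in sex-reversed and 5.23 to 5.89 in normal testes. Of the red blood cell genes 4 were higher and 9 lower, fat body genes 3 higher and 6 lower and germ cell genes 7 higher and 8 lower, with 0 past the threshold in each. In the blood list ank1.S differed by -0.99 (interval -1.65 to -0.33), nfe2.S by -0.98 (0.07 without sex-reversed replicate 3) and tal1.S by 0.88 (interval 0.29 to 1.47), and the groups of ank1.S and of tal1.S did not overlap, as for 9.63% of all probe sets. Of 3 other probe sets of nfe2.S, 2 had the same sign (both -0.28) and 1 the opposite sign (0.43), and the other probe set of tal1.S lay at -0.24. In the fat body list scd.L differed by 0.49 and plin2.S by -0.71. Their other copies differed by -0.05 (scd.S) and -0.23 (plin2.L). In the germ cell list the differences were 0.58 for tekt4.S (-0.11 without normal replicate 2), -0.88 for brdt.S and 0.78 for tdrkh.L (-0.12 without normal replicate 1).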

How the data were processed

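RNA of 3 sex-reversed and 3 normal testes was hybridised to 1-colour arrays, and the groups were taken from the sample titles. The deposited log2 values came from RMA according to the authors' entry (per the submitters' processing notes), and the log2 scale was read from their range. The RMA version, chip definition and choice of rows are not stated in the labels. RMA equalises the arrays, so a shift shared by most probe sets would not show. Genes were named from the platform annotation, where 6798 probe sets had 1 symbol, 110 several and 4577 none. All 11485 probe sets were fitted together in limma 3.58.1 (R 4.3.3; lmFit, eBayes), as sex-reversed minus normal. Tests were two-sided, and p-values were adjusted over all of them by Benjamini and Hochberg, with a threshold of 0.05. Lists took 1 probe set per gene, that with the highest mean. From each list the 3 genes with the largest absolute difference were named, with the 3 brightest plasma protein genes and the 3 probe sets most correlated with each of the 7 genes. The genes serpine2.L, gata3.S, pck1.L, ahsg.L, hrg.L, ddx4.L, dazl.L, the fibrinogen genes and the sperm genes given by percentile were added after their values were seen. So were the other copies given beside named list genes. Copy contrasts used an exact permutation test (scipy 1.17.1). The fit was checked on simulated data. The 7 genes and the lists were chosen with earlier results of these data known. No batch is given by the sources used here. The number of arrays limits the precision. Columns of other samples numbered 0.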

Additional observations from a re-analysis of the deposited data

How the results depend on the processing

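Differences were recomputed with a replicate block, median centring, cyclic loess, a further quantile normalization, filters on mean level, trended and robust variance, array weights and each array left out. Of the 7 genes 0 passed in any of them (lowest adjusted p 0.917 in limma). Only vtga2.L was left by the filter at the 25th percentile and 0 of the 7 by that at the median. Over all probe sets the count past the threshold was 0, but 2 with median centring, 2 with array weights, 1 with further quantile normalization, 1 above the median level, and 0 to 6 with 1 array left out (6 without sex-reversed replicate 3). The labels do not say whether a replicate number marks a shared litter or batch. Same-numbered arrays had correlations of deviations from the group means of -0.007, -0.02 and 0.14, beside -0.16 to 0.15 for arrays of unlike number. Arrays were not paired in the main fit, and the replicate block gave 0 calls. With 1 array left out the difference ranged from -0.37 to 0.13 for esr1.L and from -0.033 to 0.15 for esr1.S, and that of L minus S from -0.43 to 0.049 for esr1. Among 36 list genes 9 changed sign with 1 array left out: nr3c2.L (-0.075 to 0.58), nr5a2.L (-0.15 to 0.55), phb.L (-0.085 to 1.33), cyp17a1.L (-2.87 to 0.12), ctsb.S (-1.36 to 0.48), serpinf1.L (-0.57 to 0.32), tekt4.S (-0.11 to 0.93), tdrkh.L (-0.12 to 1.43) and nfe2.S (-1.59 to 0.070). Of the 36, 29 moved by over 1.5 times with some array left out, and 0 changed sign under the other alternatives. For the list genes all of these alternatives, left-out arrays included, were added after seeing the data. Levels against the array median moved by less than 1 SD over arrays with cyclic loess or 1 array left out. Of 147 recomputed correlations 3 moved by over 0.1, all for esr1.S without normal replicate 2. The causes were not tested.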
